A study of Homo sapiens with 18 samples.

Results

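The genes described here are 41 genes of the unfolded protein response and of protein folding in the endoplasmic reticulum (ER). They were taken by symbol from a list, chosen with earlier results of these data known, out of 34912 genes in the deposited tables. All 41 were found and all 41 passed the filter on low counts. RNA was sequenced from LNCaP, an androgen-sensitive human prostate cancer cell line. Cells were transfected with pooled non-targeting control siRNAs, or with siRNA pools against NFYA (siNFYA) or KLF5 (siKLF5). They were kept for 48 h in medium with 5% charcoal-stripped serum, which is poor in steroids, and then received 10 nM R1881, a synthetic androgen, or its vehicle, 96% ethanol, for 24 h. NFYA contributes to DNA recognition in NF-Y, the trimeric factor that binds CCAAT boxes, and KLF5 is a zinc-finger transcription factor. Each of the 6 combinations had 3 samples, except that siKLF5 with vehicle is represented by replicates 2 and 3, since replicate 1 was not analysed here. All groups share the same cell line and the steroid-poor medium, so that every vehicle group is an androgen-deprived culture and no group holds untransfected cells.

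Proteins that enter the secretory pathway are threaded into the ER through the Sec61 translocon, fold with the help of chaperones and disulfide isomerases, and are exported for degradation when folding fails. When unfolded proteins build up, the sensors IRE1 (gene ERN1), PERK (EIF2AK3) and ATF6 start the unfolded protein response. IRE1 cuts XBP1 mRNA in the cytosol so that a short stretch is lost and the reading frame shifts, ATF6 is released from its membrane by cleavage, and PERK slows translation. Luminal prostate cells secrete large amounts of protein under androgen, and androgen regulation of the IRE1 arm has been described in prostate cancer cells.

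The sequence that IRE1 removes from XBP1 is shown first because the share of XBP1 that lacks it was estimated in every library. In capitals are the 26 bases of the unspliced transcript that the spliced transcript lacks, inside bases 550 to 615 of the GENCODE transcript ENST00000216037; 7 placements of the gap give the same product, and one of them is drawn.
XBP1 unspliced: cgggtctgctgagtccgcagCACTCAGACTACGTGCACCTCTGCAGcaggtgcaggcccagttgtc
XBP1 spliced: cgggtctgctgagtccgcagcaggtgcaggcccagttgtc

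A second set of sequences is shown because NFYA, a subunit of NF-Y, was knocked down here. The ER stress response element is known as CCAAT followed after 9 bases by CCACG, and its second form as ATTGG followed after 1 base by CCACG, where NF-Y is known to bind the CCAAT part (ATTGG on the other strand) and ATF6 the CCACG part. Both, and CCAAT alone, were searched on both strands in RefSeq promoter windows (GRCh38.p14) from 250 bases before to 50 bases after each gene's start. Windows matched 38 of the 41 genes, and DERL1, DERL3 and PDIA3 were not matched. The first form was present in 7 of 38 (18.4%), against 25 of all 27305 genes with a window (0.0916%). The second form was present in 3 of 38 (7.89%), against 19 of 27305 (0.0696%). CCAAT alone, which both forms contain, was present in 31 of 38 (81.6%) and in 39.7% of all genes. Genes with several windows count as holding a motif when any window does. The elements of the 10 genes follow, read along the gene's strand, with both 5-base parts in capitals. Where an element lies on the opposite strand, CGTGG precedes ATTGG or CCAAT.
HSPA5 (chr9:125241386-125241414, - strand): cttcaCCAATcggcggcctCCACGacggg
HSP90B1 (chr12:103930211-103930239, + strand): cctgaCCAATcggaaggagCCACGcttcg
HSP90B1 (chr12:103930316-103930344, + strand): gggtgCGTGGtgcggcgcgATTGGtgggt
CALR (chr19:12938379-12938407, + strand): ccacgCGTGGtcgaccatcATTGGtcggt
CANX (chr5:179698773-179698801, + strand): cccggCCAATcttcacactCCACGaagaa
PDIA6 (chr2:10812848-10812876, - strand): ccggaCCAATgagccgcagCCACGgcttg
XBP1 (chr22:28800598-28800626, - strand): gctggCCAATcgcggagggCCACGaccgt
CRELD2 (chr22:49918549-49918577, + strand): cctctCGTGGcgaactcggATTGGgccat
HERPUD1 (chr16:56932020-56932040, + strand): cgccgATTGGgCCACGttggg
SDF2L1 (chr22:21642109-21642129, + strand): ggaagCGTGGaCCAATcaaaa
HYOU1 (chr11:119057375-119057395, - strand): cgtgaCGTGGtCCAATcccag
HYOU1 (chr11:119057269-119057289, - strand): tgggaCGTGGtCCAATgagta
A match of letters is a description and not a measured binding site. The 41 genes were listed for their part in ER folding and stress, which the element is named for. The higher shares are therefore no independent finding.

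Library totals ran from 4416653 to 6872421 estimated counts. Levels are given by library as CPM (counts per 1000000, scaled by TMM, a correction for differences in composition), in the order of the replicate numbers, and a gene passed a comparison at an adjusted p under 0.05. The labels do not say whether replicates were separate cultures, so p-values measure the spread between these samples, which may be technical. NFYA was at 68.3, 71.2 and 73.3 CPM with control siRNA and 48.0, 44.0 and 46.7 CPM with siNFYA in vehicle (log2 fold change -0.62 ± 0.063, SE), and at 84.5, 89.7 and 86.6 against 58.7, 56.9 and 53.6 CPM in R1881 (-0.62 ± 0.062). KLF5 was at 4.91, 4.30 and 3.26 CPM with control siRNA and 0.932 and 3.03 CPM with siKLF5 in vehicle (-1.08 ± 0.35, adjusted p 0.149), so that the library labelled siKLF5 vehicle replicate 3 lay just below the lowest control library, and at 27.9, 25.3 and 31.9 against 11.8, 11.4 and 15.2 CPM in R1881 (-1.15 ± 0.16). Within groups, siNFYA vehicle replicate 3 stood furthest from its replicates (chi-square per degree of freedom 9.94 and 13.2, against 1.32 to 3.47 for the other 14 pairs). All 9 luminal prostate markers had counts, and their sum lay between 3687 and 4072 CPM in vehicle. Basal markers summed to at most 0.468 CPM with KRT5 at 0 in every library, stromal markers to 7.50 to 16.4, endothelial markers to 2.34 to 9.47 with CDH5 at 0, and leukocyte markers to 3.85 to 12.4 with CD3E at 0. The 4 markers of plasma cells, a secretory type rich in ER proteins, summed to 54.7 to 67.7 CPM in vehicle and 18.2 to 27.9 CPM in R1881. Which of the 4 made up the sum is not given here. In bulk RNA, a change in the RNA of each cell and a change in the mix of cells cannot be told apart.

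The whole set was higher with R1881. With control siRNA, 41 of 41 genes rose, where 32.1% of the 12601 genes tested rose and the median gene moved by -0.01 on the log2 scale. The median of the 41 was 1.28, from 0.37 for ATF6 to 3.66 for AGR2, and in 41 of 41 every R1881 library lay above every vehicle library, as in 34.6% of all genes tested. Scaling by library totals alone moved the median of all genes to -0.25, and the counts of rising and falling genes from 4051 and 3881 to 2484 and 6301, yet 41 of 41 still passed as higher. By TPM (transcripts per 1000000, which corrects for length), the most abundant of the 41 in control vehicle were CALR at 1153 ± 5.26 (SD, n = 3), PDIA3 at 655 ± 17.3, HSP90B1 at 543 ± 17.0 and P4HB at 526 ± 14.8 TPM, and the lowest was DERL3 at 1.40 ± 0.526 TPM.

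**Figure D1:**
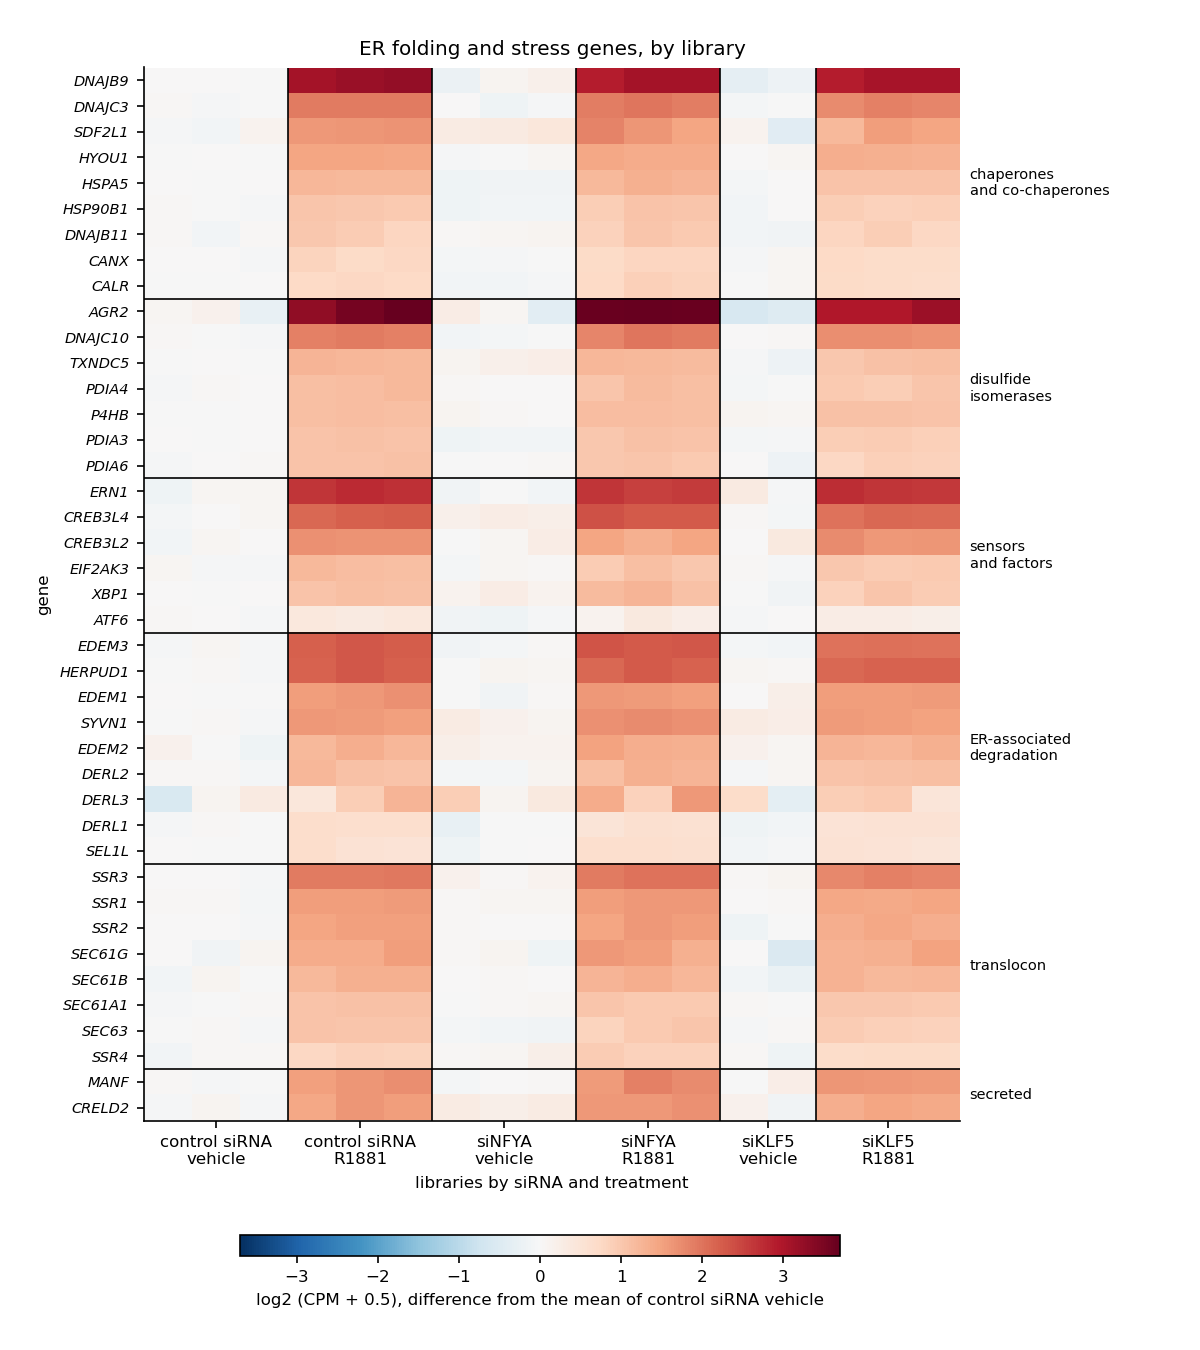
Level of each of the 41 genes in each of 17 libraries as log2(CPM + 0.5) minus the log2 of the control siRNA vehicle mean + 0.5, with columns grouped by siRNA and treatment and rows by role. R1881 columns are red in all 3 siRNA blocks, deepest for DNAJB9, AGR2 and ERN1, and the vehicle columns are pale except for DERL3 and AGR2, whose counts are low.

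Chaperones fold and hold client proteins in the ER lumen and membrane. All 9 rose with a median of 1.21. The co-chaperone DNAJB9, an inhibitor of IRE1 and a partner of the main ER chaperone, went from 16.2, 16.3 and 16.0 CPM in the control vehicle libraries to 141, 153 and 159 CPM with R1881, 9.30-fold (3.22 ± 0.08, adjusted p 2.1e-21, n = 3 per group). Its vehicle libraries lay within 1 CPM of each other, and the lowest R1881 library was far above them. HSPA5, which encodes BiP, the Hsp70 of the ER that also restrains the stress sensors (chr9:125234853-125241330, - strand, GRCh38), was at 739, 735 and 740.0 CPM in vehicle and 1741, 1698 and 1692 CPM with R1881 (1.21 ± 0.034, adjusted p 2.96e-20). DNAJC3, a co-chaperone of BiP, was at 93.6, 88.2 and 90.2 against 346, 348 and 344 CPM (1.93 ± 0.045). The groups of both genes were well apart. SDF2L1, a BiP-associated protein, rose by 1.66, and HYOU1, a nucleotide exchange factor for BiP, by 1.45. HSP90B1, the Hsp90 of the ER, rose by 1.00 and DNAJB11, another BiP co-chaperone, by 0.92. The lectin chaperones of glycoproteins rose least among the 9. CALR was at 1240.3, 1237 and 1245 CPM in vehicle and 2089, 2100.1 and 2087 CPM with R1881 (0.75 ± 0.036), and its membrane-bound relative CANX rose by 0.76.

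Disulfide isomerases form and reshuffle disulfide bonds. All 7 rose with a median of 1.15, and 5 of the 7 lay between 1.06 and 1.22. AGR2, an isomerase of mucus-secreting and prostate epithelium (chr7:16791811-16833433, - strand), was the exception in level and in change. It was at 4.32, 4.58 and 3.26 CPM in vehicle and 43.7, 52.0 and 59.1 CPM with R1881, 12.6-fold (3.66 ± 0.15, adjusted p 4.16e-17). Its vehicle libraries rest on low counts, but no R1881 library came near them. DNAJC10, a reductase that acts on proteins bound for degradation, rose by 1.89. PDIA3, which acts on glycoproteins held by the lectin chaperones, was at 709, 705 and 708 against 1472, 1503 and 1478 CPM (1.07 ± 0.034). P4HB, the founding isomerase of the family, was at 738, 749.5 and 762 against 1629, 1647 and 1613 CPM (1.12 ± 0.033). PDIA4 rose by 1.15 and PDIA6 by 1.06. TXNDC5 was at 191, 192 and 191 against 455, 448 and 439 CPM (1.22 ± 0.037). TXNDC5 shares sequence with the readthrough gene BLOC1S5-TXNDC5, which was assigned 4.02, 6.30 and 5.33 CPM in control vehicle and 0 in each control R1881 library. With siNFYA it was at 0, 2.23 and 0 CPM in vehicle and 4.99, 0 and 0 CPM in R1881, and with siKLF5 at 10.4 and 6.61 CPM in vehicle and 0.601, 0 and 0 CPM in R1881. Reads of PDIA3 could also be shared with its pseudogene copies PDIA3P1 (1.08 to 4.09 TPM over all libraries) and PDIA3P2 (0 to 12.4 TPM).

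Among the sensors and their transcription factors, all 6 rose with a median of 1.42. The changes of the 3 sensors spanned 0.37 to 2.71. ERN1 (chr17:64039142-64130819, - strand) went from 26.5, 30.9 and 30.9 CPM to 186, 202 and 193 CPM, 6.55-fold (2.71 ± 0.062, adjusted p 3.56e-22). EIF2AK3 was at 53.6, 49.1 and 49.4 CPM in vehicle and 117, 113 and 111 CPM with R1881 (1.17 ± 0.061, adjusted p 1.27e-14). ATF6 was at 81.6, 80.5 and 77.7 against 106, 101 and 104 CPM (0.37 ± 0.058, adjusted p 4.96e-06), the smallest change of the 41. Its libraries did not overlap either, but it did not pass when log2(TPM + 1) was tested with limma. XBP1, the target of IRE1 (chr22:28794555-28800597, - strand), was at 181, 178 and 180.3 against 378, 390.1 and 384 CPM (1.09 ± 0.042, adjusted p 2.36e-17). CREB3L4 and CREB3L2, membrane-bound factors of the ATF6 type, rose by 2.20 and 1.68.

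ER-associated degradation recognises misfolded proteins, moves them out and marks them with ubiquitin. All 9 of its genes rose with a median of 1.29. EDEM3, a mannosidase that marks glycoproteins for disposal, was at 77.0, 83.2 and 76.2 CPM in vehicle and 364, 392 and 377 CPM with R1881 (2.26 ± 0.047, adjusted p 5.02e-23). HERPUD1, a membrane scaffold of the degradation complex, was at 87.8, 91.8 and 87.0 against 409, 437 and 417 CPM (2.24 ± 0.045, adjusted p 3.05e-23). They were 4.78-fold and 4.73-fold higher, with groups well apart. The relatives EDEM1 and EDEM2 rose by 1.62 and 1.29. The ubiquitin ligase SYVN1 rose by 1.58, and its adaptor SEL1L by 0.57, a difference that did not pass for SEL1L when TPM was tested with limma. The derlins, candidate channel proteins, were uneven. DERL2 rose by 1.13 and DERL1 by 0.63. DERL3 was at 0.893, 1.72 and 2.07 against 2.26, 3.37 and 4.47 CPM (1.09 ± 0.38, adjusted p 0.0148) and did not pass without control vehicle replicate 1 or without control R1881 replicate 3.

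The translocon genes encode the channel and its partners. All 8 rose with a median of 1.36. SSR3, a subunit of the translocon-associated TRAP complex, was at 153, 152 and 146 CPM in vehicle and 567, 574 and 584 CPM with R1881 (1.93 ± 0.038). The other TRAP subunits SSR1, SSR2 and SSR4 rose by 1.55, 1.50 and 0.81, so that subunits of 1 complex ranged from 0.81 to 1.93. The channel subunits SEC61A1, SEC61B and SEC61G rose by 1.08, 1.28 and 1.44, and SEC63, which couples the channel to BiP, by 1.04. The pseudogene copy SSR4P1 held 3.98 to 9.12 TPM. The secreted stress proteins MANF and CRELD2 rose by 1.63 and 1.55, from 69.2, 65.7 and 66.6 to 194, 209.7 and 222 CPM and from 38.1, 42.2 and 38.0 to 107, 124 and 117 CPM.

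**Figure D2:**
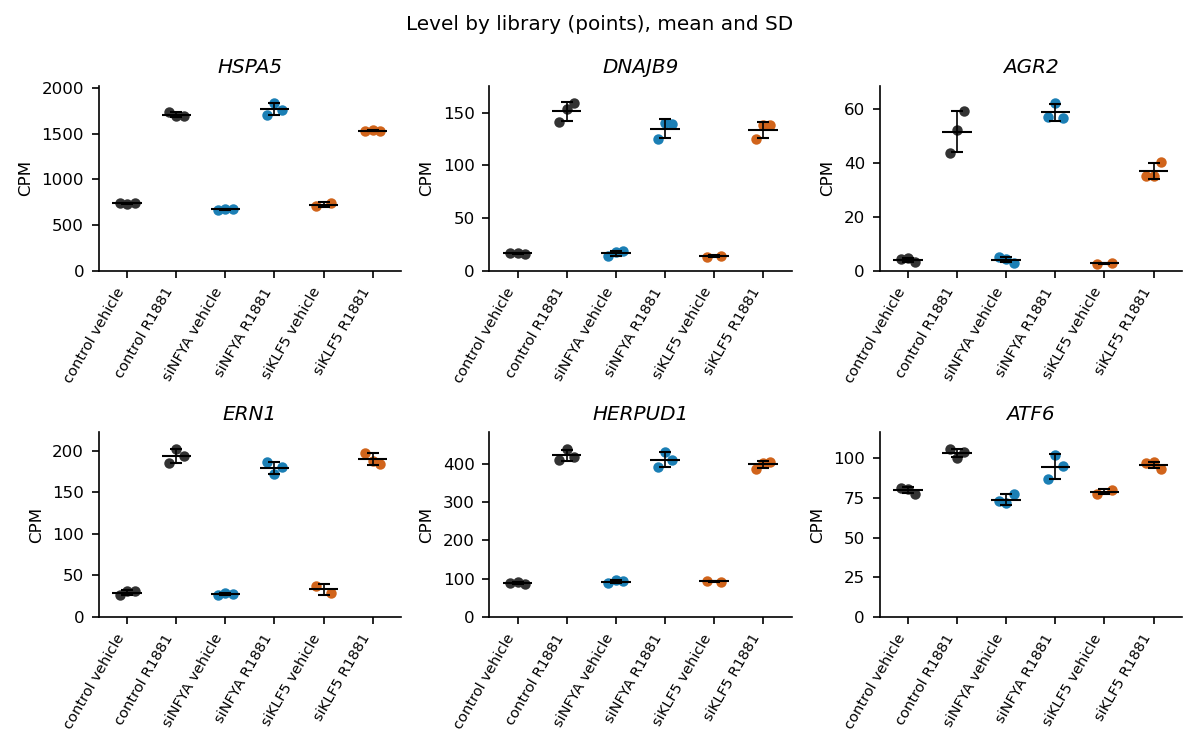
CPM in each library (points) with the group mean (long bar) and SD for 6 of the genes, by siRNA and treatment, each axis starting at 0. The R1881 libraries lie above the vehicle libraries in every panel, by 12.6-fold for AGR2 and 1.29-fold for ATF6 with control siRNA.

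The rise with R1881 can be set beside the elements printed above. With control siRNA, the 7 genes with the first form had a median of 1.06 (0.75 to 1.55), the 3 with the second form 1.66 (1.45 to 2.24), and the 28 with neither 1.47 (0.37 to 3.66). These medians are descriptions with no test. Of the 5 genes with the largest rises, AGR2, DNAJB9, ERN1 and EDEM3 held neither form in their windows, and HERPUD1 held the second.

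The share of XBP1 mRNA in the spliced form was taken from the transcript estimates. In ENST00000611155 and ENST00000344347 the 26 bases are missing, and their summed TPM was divided by the TPM of all XBP1 transcripts. With control siRNA the spliced share was 9.37, 9.07 and 3.60% in vehicle and 22.5, 19.7 and 21.9% with R1881. With siNFYA it was 4.63, 11.3 and 6.14% in vehicle and 16.4, 22.5 and 16.9% with R1881. With siKLF5 it was 4.33 and 5.08% in vehicle and 18.0, 18.6 and 16.7% with R1881. Every R1881 library lay above every vehicle library of the series. Averaged over the 3 siRNAs, the share was 12.8 percentage points higher with R1881 (two-sided exact permutation test within siRNA, p = 0.00025, the smallest its 4000 arrangements can give, and 0.002 after adjustment over 8 tests). Within 1 siRNA the exact test cannot go below p = 0.1, which each of the 3 reached (adjusted p = 0.16), with differences of 14.0 points for control siRNA, 11.2 for siNFYA and 13.1 for siKLF5. The level of the spliced form was 13.1 ± 5.92 TPM in control vehicle and 72.0 ± 4.32 TPM with R1881 (SD, n = 3), while the unspliced form was 164 ± 3.43 and 264 ± 8.54 TPM. For a knockdown against control siRNA within 1 treatment, the exact permutation test also cannot go below p = 0.1. No difference in this share could therefore have passed. In R1881 the difference was -3.57 points with siKLF5 (exact permutation p = 0.1, the smallest possible, adjusted 0.16), each siKLF5 library lying below each control library. With siNFYA it was -2.77 points in R1881 (p = 0.3, exact permutation). In vehicle it was -2.64 points with siKLF5 (p = 0.4, exact permutation) and 0.0204 points with siNFYA (p = 1, exact permutation). The splice itself removes only 26 bases, but the listed transcripts also differ elsewhere. The main unspliced transcript, ENST00000216037, has 1850 bases, and ENST00000344347 has 1131. The share therefore rests on reads over the junction, on reads elsewhere in these transcripts and on the estimator's division of the rest. The division between the 2 spliced transcripts was unstable, from 0 to 119.9 estimated counts for ENST00000344347, and only their sum is used. This sum in TPM still depends on the division, since the transcripts differ in length (1131 bases for ENST00000344347, 1794 for ENST00000611155). In vehicle, their mean TPM was 12.3 and 0.822 with control siRNA, and 0.0341 and 14.5 with siNFYA. With control siRNA in R1881 it was 14.2 and 57.8. The differences in share between knockdown and control siRNA, and those within 1 siRNA, therefore carry this uncertainty. Only the average over the 3 siRNAs is also given by estimated counts, below. How far any of these shares, that average included, follows reads outside the removed 26 bases was not tested.

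**Figure D3:**
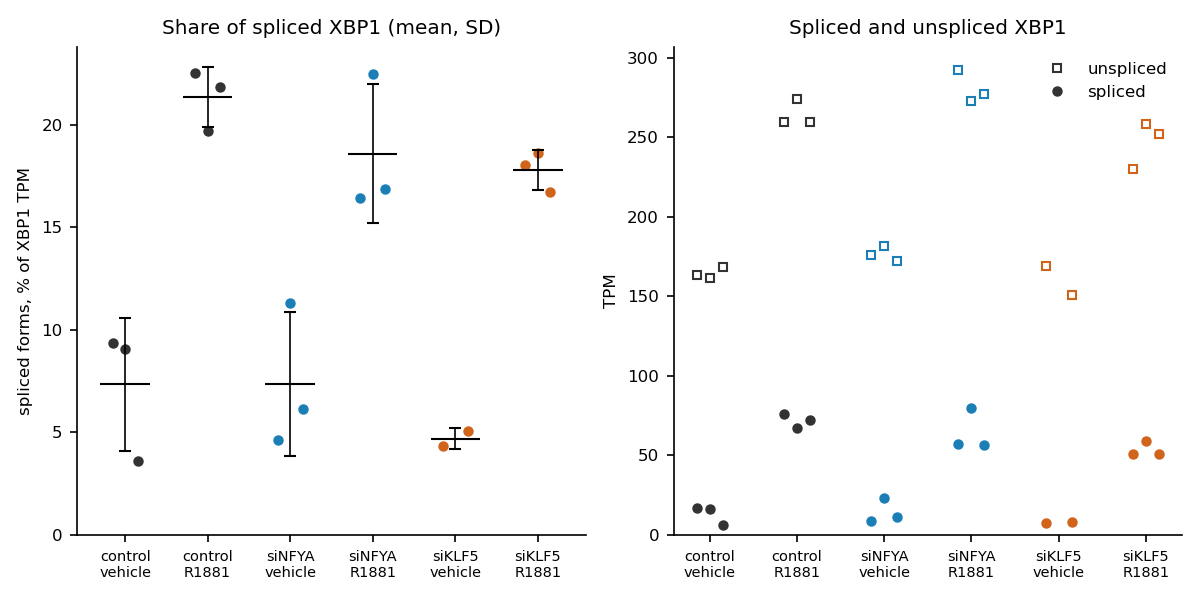
Left, spliced forms as percent of XBP1 TPM in each of 17 libraries, with the group mean and SD. Right, TPM of the spliced (filled circles) and unspliced (open squares) forms in the same libraries. The R1881 libraries hold 16.4 to 22.5% spliced and the vehicle libraries 3.60 to 11.3%.

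The response to R1881 was present under both knockdowns. With siNFYA, 41 of 41 genes rose (31.2% of 12601 genes tested), with a median of 1.26, and in 40 of 41 every R1881 library lay above every vehicle library (32.2% of all genes). With siKLF5, 40 of 41 rose (30.7% of 12733), with a median of 1.18, and 40 of 41 did not overlap in this way (34.9% of all genes). The siKLF5 response was measured against its own vehicle libraries, and the siNFYA response likewise, so these 3 responses share no library. The same 5 genes led all 3. AGR2 rose by 3.81 with siNFYA and 3.79 with siKLF5. DNAJB9 rose by 3.02 and 3.32, and ERN1 by 2.69 and 2.52. EDEM3 rose by 2.36 and 2.12, and HERPUD1 by 2.15 and 2.10. In libraries, DNAJB9 was at 14.0, 17.3 and 18.5 CPM in siNFYA vehicle and 125, 140.2 and 139 CPM in siNFYA R1881, and at 12.8 and 14.0 CPM in siKLF5 vehicle and 125, 138 and 138 CPM in siKLF5 R1881. AGR2 went from 5.01, 4.28 and 2.98 CPM in vehicle to 57.2, 62.3 and 56.8 CPM in R1881 with siNFYA, and from 2.53 and 2.75 to 35.3, 35.0 and 40.2 CPM with siKLF5. ERN1 went from 26.9, 29.0 and 27.5 CPM in vehicle to 186, 172 and 181 CPM in R1881 with siNFYA, and from 37.5 and 28.8 to 198, 188 and 184 CPM with siKLF5. For all 3 genes the R1881 libraries were far above vehicle under each knockdown. ATF6 again changed least, by 0.36 and 0.28, and did not pass in either arm with library totals or with TPM and limma. SEL1L did not pass with TPM and limma in the siKLF5 arm. DERL3 was at 2.79 and 1.10 against 3.41, 3.56 and 2.34 CPM with siKLF5 (0.68 ± 0.43, adjusted p 0.181), with overlapping groups, and passed (0.91) with overlap under siNFYA. That siNFYA call was lost with library totals, with DESeq2, with TPM and limma, and without any 1 of siNFYA vehicle replicates 2 and 3 and siNFYA R1881 replicates 1 and 3. Without siKLF5 vehicle replicate 2, which leaves 1 library in that group, DERL3 lay at 1.49 in the siKLF5 arm.

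**Figure D4:**
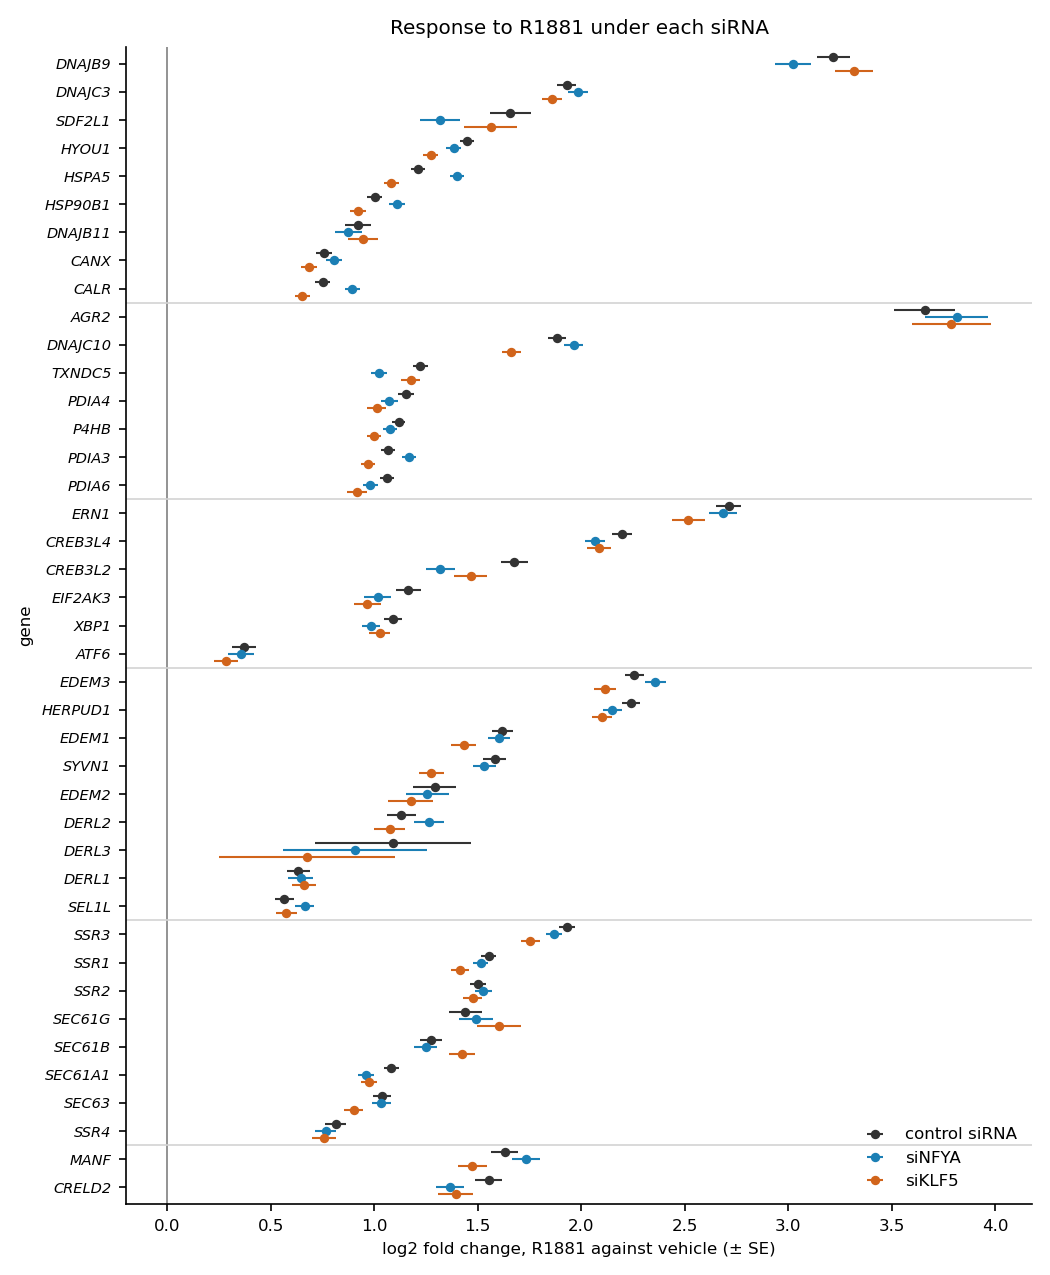
Log2 fold change of R1881 against vehicle for each of the 41 genes (points, with SE), under control siRNA, siNFYA and siKLF5, ordered by role and by size within a role. All points lie right of 0, from 0.28 for ATF6 with siKLF5 to 3.81 for AGR2 with siNFYA, and the SE bars of DERL3 are the widest.

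Whether the response differed from that with control siRNA was tested as an interaction. None of the 41 passed for siNFYA (0.722% of all genes passed) or for siKLF5 (0.0157%), while 7 of the 41 had an unadjusted p under 0.05 for siNFYA (12.0% of all genes did) and 11 for siKLF5 (6.71%). For siNFYA the lowest adjusted p was 0.0617, for HSPA5, whose response was larger by 0.19 ± 0.048 (SE). The next were TXNDC5 at -0.20 ± 0.053 (adjusted p 0.0726) and CREB3L2 at -0.36 ± 0.10 (adjusted p 0.0889). HSPA5 passed under DESeq2 size factors, library totals, no filter or DESeq2, without siNFYA vehicle replicate 3 and without siNFYA R1881 replicate 1. CALR (0.14 ± 0.051) passed with DESeq2 and without either of those libraries, TXNDC5 without replicate 1 of siNFYA vehicle or of siNFYA R1881, and CREB3L2 with no filter. For siKLF5 the lowest adjusted p was 0.339, for DNAJC10 at -0.21 ± 0.059, followed by SYVN1 at -0.29 ± 0.084 (0.352) and HYOU1 at -0.16 ± 0.049 (0.388). Of the 41 differences, 34 were below 0 with siKLF5, where 47.7% of all genes were, and 26 with siNFYA, where 53.6% were. Each interaction uses the same 6 control libraries.

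With siNFYA against control siRNA, a minority of the 41 genes passed, as did a minority of all genes, and the differences were small. In vehicle, 5 of 41 were higher (6.67% of all genes were) and 3 were lower (6.79%). In 14 of 41 the libraries did not overlap, in either direction, as in 30.4% of all genes. SDF2L1 was at 16.8, 16.2 and 19.1 CPM with control siRNA and 21.5, 22.1 and 23.4 CPM with siNFYA (0.36 ± 0.12, adjusted p 0.0389). CRELD2 was at 38.1, 42.2 and 38.0 against 48.3, 45.6 and 48.8 CPM (0.27 ± 0.078, adjusted p 0.0223). CREB3L4 was at 76.2, 82.1 and 84.2 against 92.2, 98.0 and 93.8 CPM (0.23 ± 0.057, adjusted p 0.00783). These 3 genes, a BiP partner, a secreted stress protein and a membrane-bound factor, had non-overlapping libraries. XBP1 was at 198, 217 and 197 CPM with siNFYA (0.19 ± 0.045, adjusted p 0.00738) and TXNDC5 at 204, 218 and 226 CPM (0.17 ± 0.04, adjusted p 0.00466), both above every control vehicle library given above. The readthrough gene BLOC1S5-TXNDC5 averaged 5.22 CPM in control vehicle and 0.742 CPM in siNFYA vehicle, and its part in the TXNDC5 difference was not tested. Lower were 3 abundant folding genes. HSPA5 was at 667, 671 and 674 CPM (-0.14 ± 0.035, adjusted p 0.00888), PDIA3 at 639, 665 and 653 CPM (-0.12 ± 0.034, adjusted p 0.0252) and HSP90B1 at 797, 819.6 and 826 CPM, where control vehicle had 911, 877 and 861 (-0.12 ± 0.038, adjusted p 0.0442). All 3 lay below every control library, with fitted levels of 0.909 to 0.923 times control. Leaving out 1 library left 2 to 4 higher and 1 to 4 lower, and each of the 8 except HSPA5 failed in at least 1 of these fits. Without the outlying siNFYA vehicle replicate 3, 2 were higher (XBP1 and CREB3L4) and 4 lower, with CALR added at -0.11. Without any 1 of control vehicle replicates 1 and 2 and siNFYA vehicle replicate 1, 1 was lower, and without control vehicle replicate 1 or siNFYA vehicle replicate 2, 2 were higher. Without siNFYA vehicle replicate 1, 3 were higher. Mitochondrial genes took 2.60 to 3.00% of counts in siNFYA vehicle and 1.77 to 2.07% in control vehicle, and their part in these differences was not tested.

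The 10 genes with an ER stress response element were looked up for siNFYA against control siRNA in vehicle. Among the 7 with the first form, HSPA5 and HSP90B1 were lower and XBP1 and CRELD2 higher. Among the 3 with the second, SDF2L1 was higher. The elements of these genes are printed above. The other 5 (CALR, CANX, PDIA6, HERPUD1 and HYOU1) did not pass, at -0.075, -0.041, 0.018, 0.054 and 0.0081. Of the 28 genes with neither form, 2 were higher and 0 lower, and of the 3 with no window 0 were higher and 1 lower. Of all genes, 6.67% were higher and 6.79% lower. SDF2L1 and CRELD2 did not pass with DESeq2. With TPM and limma, HSP90B1, XBP1, SDF2L1 and CRELD2 did not pass. Binding of NF-Y was not measured, and a link between the elements and these differences was not tested.

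In R1881, siNFYA against control siRNA left 0 genes higher (2.63% of all genes were) and 1 lower (3.33%), with 9 of 41 at an unadjusted p under 0.05 by edgeR, beside 19.0% of all genes. CREB3L2 was at 134, 132 and 132 CPM with control siRNA and 115, 104 and 116 CPM with siNFYA (-0.25 ± 0.058, adjusted p 0.00906), with no overlap. It did not pass without siNFYA R1881 replicate 2, nor with TPM and limma. Without siNFYA R1881 replicate 1, MANF passed as higher at 0.17. The 5 genes that were higher in vehicle lay at 0.022 (SDF2L1), 0.079 (CRELD2), 0.10 (CREB3L4), 0.078 (XBP1) and -0.026 (TXNDC5) in R1881, and the 3 lower ones at 0.051 (HSPA5), -0.0087 (HSP90B1) and -0.014 (PDIA3). The sensors ERN1, EIF2AK3 and ATF6 were at -0.11 ± 0.048, -0.13 ± 0.057 and -0.12 ± 0.059, with adjusted p of 0.208, 0.184 and 0.252. By library, siNFYA R1881 held 96.9, 111 and 103 CPM of EIF2AK3 and 86.9, 102 and 95.2 CPM of ATF6, overlapping control R1881 in both. Mitochondrial genes took 2.54 to 2.62% of counts in siNFYA R1881 and 1.33 to 1.44% in control R1881, and their part was not tested.

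In R1881, part of the set was lower with siKLF5 than with control siRNA. There, 8 of 41 genes were lower (0.55% of all genes were) and 0 higher (0.832%). The median of the 41 was -0.11, beside 0.00024 for all genes, and 39 of 41 were below 0, as were 49.9% of all genes. In 27 of 41 the libraries did not overlap, in either direction (19.5% of all genes), and 23 of 41 had an unadjusted p under 0.05 (12.5% of the 12733 genes tested). By role, 5 of 7 disulfide isomerases passed as lower (median -0.18), 2 of 9 chaperones (-0.12) and 1 of 9 degradation genes (-0.057), and none of 6 sensors and factors (-0.10), 8 translocon genes (-0.11) or the secreted pair (-0.080).

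AGR2 had the largest difference, at 43.7, 52.0 and 59.1 CPM with control siRNA and 35.3, 35.0 and 40.2 CPM with siKLF5 (-0.48 ± 0.10, adjusted p 0.0123). In vehicle it was at 2.53 and 2.75 CPM, also below the control libraries, but with low counts and no pass (-0.62 ± 0.29, adjusted p 0.373). EDEM3 was at 364, 392 and 377 against 316, 326 and 319.6 CPM (-0.23 ± 0.04, adjusted p 0.00275). These were the leaders of the degradation and isomerase groups in the rise with R1881. PDIA6 was at 643, 637 and 649 against 528, 566 and 554 CPM (-0.22 ± 0.043, adjusted p 0.00849). PDIA4 was at 443, 446 and 465 against 395, 383 and 413 CPM (-0.18 ± 0.039, adjusted p 0.0209). DNAJC10 was at 500.3, 526 and 503 against 453, 453 and 437 CPM (-0.18 ± 0.036, adjusted p 0.01). All 3 catalyse thiol exchange, and in all 3 each siKLF5 library was below each control library. HSPA5 was at 1528, 1538 and 1536 CPM with siKLF5, below the 1692 CPM of the lowest control R1881 library (-0.15 ± 0.03, adjusted p 0.0123). PDIA3 was at 1341, 1345 and 1300.0 CPM (-0.15 ± 0.029, adjusted p 0.0076) and HYOU1 at 767, 748 and 739 CPM, where control R1881 had 830.4, 836 and 815 (-0.13 ± 0.032, adjusted p 0.0427). AGR2 stood at 0.716 times its control level, and the other 7 between 0.855 and 0.915 times. TXNDC5 (-0.15 ± 0.039, adjusted p 0.0554) and HSP90B1 (-0.12 ± 0.034, adjusted p 0.0804) fell just outside the threshold.

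**Figure D5:**
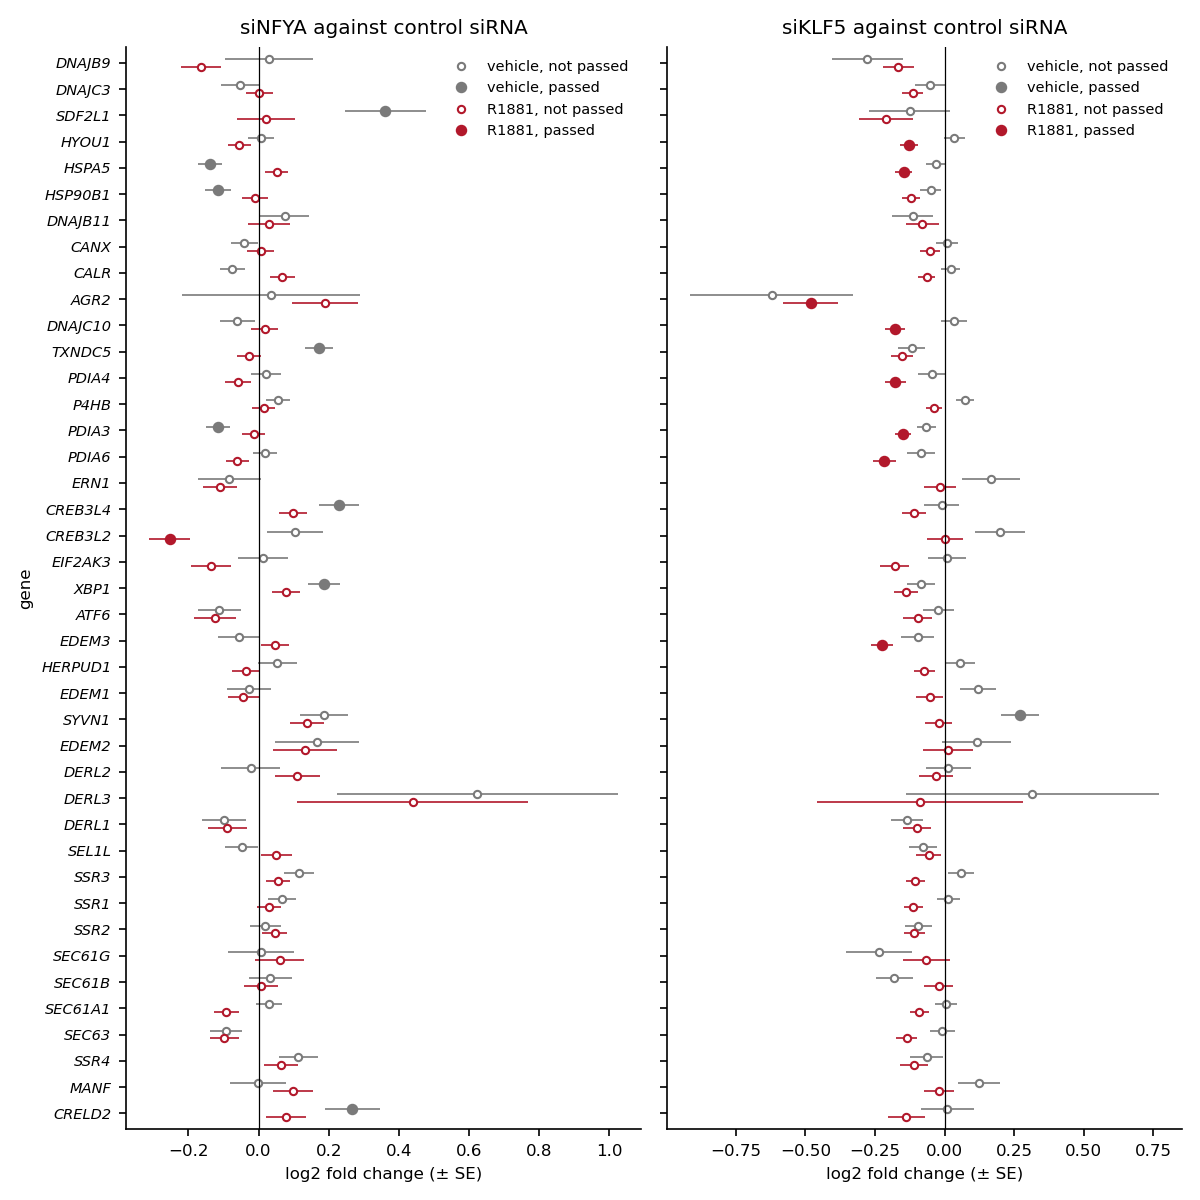
Log2 fold change of siNFYA (left) and siKLF5 (right) against control siRNA for each of the 41 genes, in vehicle (grey) and R1881 (red), with SE. Filled points passed at an adjusted p under 0.05, and the panels have different scales. With siKLF5 in R1881, 39 of 41 red points lie left of 0 and 8 are filled.

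The number of siKLF5 calls moved with 1 library and with the method. Leaving out 1 library left 3 to 5 of the 8, with 3 calls without control R1881 replicate 2 or siKLF5 R1881 replicate 1, 4 without siKLF5 R1881 replicate 2, and 5 without any other. EDEM3 passed in each of these 6 fits and HYOU1 in none. Over all genes, these fits left 27 to 38 lower, where the fit with all libraries had 70. DESeq2 and a fit of the compared groups alone each gave 12 lower, of 87 and 137 genes lower in all, with AGR2 lost under DESeq2, and log2(TPM + 1) tested with limma gave 0. Mitochondrial genes took 2.20 to 2.82% of counts in siKLF5 R1881 and 1.33 to 1.44% in control R1881, and their part in these differences was not tested. Summed luminal markers lay between 13218.5 and 14771 CPM in all R1881 libraries.

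In vehicle, siKLF5 left 1 gene higher (0.77% of all genes were) and 0 lower (0.55%), with 8 of 41 at an unadjusted p under 0.05 by edgeR, beside 12.9% of all genes. SYVN1 was at 46.4, 48.5 and 45.0 CPM with control siRNA and 58.2 and 54.9 CPM with siKLF5 (0.27 ± 0.068, adjusted p 0.0488). It failed on leaving out any 1 of the 5 libraries, when only the compared groups were fitted, with DESeq2 and with TPM and limma. Leaving out siKLF5 vehicle replicate 2 leaves the library with the higher KLF5 level as the lone sample, assumed to vary like the other groups. In that fit PDIA6 lay at -0.20, TXNDC5 at -0.20, SEC61G at -0.57 and CREB3L2 at 0.36. The 8 genes lower in R1881 lay in vehicle at -0.62 (AGR2), -0.10 (EDEM3), -0.084 (PDIA6), -0.047 (PDIA4), 0.034 (DNAJC10), -0.032 (HSPA5), -0.065 (PDIA3) and 0.035 (HYOU1). As given above, the difference between treatments did not pass for any of them. For the sensors, ERN1 was at 0.17 ± 0.10 in vehicle and -0.016 ± 0.057 in R1881, EIF2AK3 at 0.0073 ± 0.068 and -0.18 ± 0.053, ATF6 at -0.023 ± 0.056 and -0.10 ± 0.052, and XBP1 at -0.085 ± 0.052 and -0.14 ± 0.043, none of which passed.

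Other ER genes, from 6 lists of 146 genes, moved less evenly with R1881 under control siRNA, where 32.1% of all genes rose and 30.8% fell. Of other folding and oxidation genes, 23 of 32 rose and 5 fell, led by PDIA5, a disulfide isomerase (2.45), HSPA13, an ER Hsp70 relative (1.77), and FKBP11, a prolyl isomerase (1.57). Of N-glycan trimming and quality control genes, 10 of 14 rose and 2 fell, with the mannosidase MAN1A1 lower (-3.26, 9.28 ± 1.21 against 0.943 ± 0.668 CPM, SD, n = 3) and the cargo lectin LMAN1 (1.74) and ERLEC1 (1.72) higher. Of other degradation genes, 21 of 31 rose and 1 fell, led by the ubiquitin-conjugating enzyme UBE2J1 (2.34), SELENOS (1.90) and the peptidase HM13 (1.39). Of other translocation and signal peptide genes, 31 of 36 rose and 1 fell, led by the signal peptidase subunits SEC11C (1.76) and SPCS3 (1.62) and by SRP19 (1.51). Of other sensors and membrane-bound factors, 6 of 11 tested rose and 2 fell, led by WFS1 (1.42), PTPN1 (0.97) and CREB3 (0.91). Of genes of the PERK arm and ATF4 targets, 14 of 18 rose and 1 fell, led by VLDLR (1.81), CHAC1 (1.51) and ERO1A (1.48). The medians of the 6 lists lay between 0.20 and 0.71, below the 1.28 of the 41 genes. The 41 genes and these lists were chosen with earlier results of these data known, so that contrast is a description only. Under siNFYA in vehicle, 6.67% of all genes were higher and 6.79% lower. There, 9 of 18 PERK and ATF4 genes were higher and 0 lower, and 0 of 36 other translocation genes were higher and 5 lower. Of other folding genes 1 of 32 was higher and 2 lower, and of N-glycan genes 1 of 14 and 1. Of other degradation genes it was 2 of 31 and 1, and of other sensors 0 of 11 and 0. With siNFYA in R1881, 1 of 18 PERK and ATF4 genes was higher (2.63% of all genes) and 0 lower (3.33%). Their median there was -0.054, beside 0.25 in vehicle. Of other translocation genes, 0 of 36 were higher in R1881 and 1 lower. Under siKLF5 in R1881, 3 genes of the 6 lists were lower and 0 higher, where 0.55% of all genes were lower and 0.832% higher. The 3 were 1 of 32 other folding genes, 1 of 14 N-glycan genes and 1 of 36 other translocation genes.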

How the data were processed

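RNA-seq libraries were made with a directional kit, per the labels' protocols. The submitters' processing notes list the read checker FastQC, the trimmer Trimmomatic, the quantifier kallisto, DESeq2 and GRCh38. Versions: not given in the sources used here. Estimated counts per gene were deposited in 2 tables (control with siNFYA, control with siKLF5) whose control columns are identical. Other deposited tables join, for each gene or transcript, an estimated count, a TPM value and an unnamed number, which was left aside. All 17 libraries were mapped to a sample by label number, and siKLF5 vehicle replicate 1 (label number 7) was not analysed here.

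After rounding of the estimated counts, each table was filtered with filterByExpr, normalised by TMM and fitted with the edgeR 4.0.16 quasi-likelihood F test (R 4.3.3), with 1 coefficient per group and 9 contrasts. Benjamini-Hochberg adjustment ran over all genes of a table, and log2 fold changes are given ± SE. Displayed CPM were scaled by TMM over all 17 libraries. Alternatives were DESeq2 size factors, library totals, no filter, the compared groups only, DESeq2 1.42.0, limma 3.58.1 on log2(TPM + 1), and leaving out each library. All 16 pairs of libraries within a group differed beyond counting noise. In a single library 3 counts stand for 0.437 to 0.679 CPM, for counting error only.

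XBP1 forms were told apart by transcript sequence, and gene positions were read from GENCODE v29. The members, the 6 other gene lists and the marker lists were chosen with earlier results of these data known. Genes given with values by library were the 5 largest rises per R1881 comparison, called members of each knockdown comparison, ERN1, XBP1, ATF6 and EIF2AK3, the 3 highest by TPM, and TXNDC5. Others with values by library were chosen after their values were seen. Protein sequences were not analysed here.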

Additional observations from a re-analysis of the deposited data

How the results depend on the processing

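No paired analysis was possible because the labels number the libraries 1 to 18, so that no 2 groups share a number. Of 611 recomputed values of named genes, 546 kept their direction and their side of the threshold, 65 kept the direction but no longer passed, and 0 reversed. Of these, limma on log2(TPM + 1) ended 17 of 52 calls, and leaving out 1 library 41 of 299. These tallies pool R1881 calls with knockdown calls. In them, ATF6 alone lost R1881 calls with TPM, and every loss on leaving out 1 library was in a knockdown comparison. They leave out HSPA5 and HYOU1 for siKLF5 in R1881, and DERL3 and SEL1L for R1881 against vehicle. For siNFYA in vehicle, DESeq2 gave 3 genes higher and TPM with limma 1. For siNFYA in R1881, 2 were lower with no filter and 0 with TPM. For siKLF5 in vehicle, the compared groups only, DESeq2 and TPM each gave 0 higher. For siKLF5 in R1881, TPM gave 0 lower, where 11 of 12733 genes were lower in all. In the siNFYA interaction, DESeq2 size factors, library totals and no filter each gave 1 higher, DESeq2 gave 2 higher, and no filter gave 1 lower. The causes were not tested.

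With 1 library left out, 40 to 41 genes were higher in each of the 3 R1881 comparisons and 0 lower. For siNFYA in vehicle 2 to 4 were higher and 1 to 4 lower, and in R1881 0 to 1 higher and 0 to 1 lower. For siKLF5 in vehicle 0 to 1 were higher and 0 to 3 lower, and in R1881 0 higher and 3 to 5 lower. The upper ends for siKLF5 in vehicle come from the fit that leaves 1 siKLF5 vehicle library. In the siNFYA interaction 0 to 2 were higher and 0 to 1 lower, and in the siKLF5 interaction 0 in both directions. The difference in spliced XBP1 ran from 12.1 to 13.4 percentage points with 1 library left out. It was 12.0 points by estimated counts and 12.9 points over coding forms alone. Depth limits AGR2 and DERL3 in vehicle, at a few CPM or less.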
